A study of Mus musculus with 39 samples.

Results

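7 genes named here for their place in the duodenum, the first stretch of the small intestine, were followed through mouse intestinal tumours and non-tumour tissue: the transcription factors Pdx1, Gata4 and Onecut2, the luminal enzymes Akp3 and Tmprss15, and the iron oxidoreductases Cybrd1 and Heph. They were chosen by name, and make up 7 of the 49585 gene identifiers in the count tables. All 7 had enough counts to be tested.

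The libraries came from intestinal tumour tissue and from the unaffected tissue around it in C57BL/6 mice. All groups carried Apc Min/+, an allele of the tumour suppressor Apc that gives rise to many intestinal tumours. The other locus was Adam17, either ADAM17 wt/wt or ADAM17 ex/ex; ADAM17 is a membrane protease that sheds EGF receptor ligands and the IL-6 receptor, and ex/ex is a hypomorphic allele with strongly reduced protein. There were 12 wild-type tumours, 4 wild-type non-tumour samples, 17 ex/ex tumours and 6 ex/ex non-tumour samples, 39 libraries in all. The labels used here name no age, sex, animal or position along the intestine, so several samples may come from the same animal, and a p-value here reflects sample-to-sample spread only.

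The intestine is patterned along its length by transcription factors. PDX1 is expressed in the duodenum and pancreas, GATA4 in the duodenum and jejunum but not in the terminal ileum, and ONECUT2 in proximal small intestine. Enterocytes of the duodenum also carry the machinery for taking up iron: CYBRD1 reduces dietary iron at the luminal face, and hephaestin, the product of Heph, oxidises it as it leaves the cell on the blood side. TMPRSS15, or enteropeptidase, activates trypsinogen at the brush border, and Akp3 encodes an intestinal alkaline phosphatase of the mouse duodenum.

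Levels are given as CPM, counts scaled to a common library size by trimmed mean of M values. The libraries held 438639 to 11112321 gene counts. The lowest total belonged to wild-type non-tumour replicate 1, where 1 count was worth 2.28 CPM before that scaling, and the other 38 libraries held at least 5668185. Adam17 itself was at 33.6 to 110 CPM of total gene counts in wild-type tumours and 10.4 to 42.4 in ex/ex tumours, and at 8.60 to 12.2 in all 6 ex/ex non-tumour libraries against 2.28 to 66.9 in the 4 wild-type ones, the lowest of which was the shallow library. A set of 10 epithelial genes (the epithelium list) summed to 542.8 CPM in wild-type tumour replicate 4, against 6665 to 20630 in the other wild-type tumours.

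Libraries of ex/ex non-tumour replicates 3 and 4 stood apart from the other 4 of their group. Pdx1 was at 106 and 110 CPM in these libraries and at 0.218 to 1.29 CPM in the other 4. Their summed epithelium list was 9362 and 8583 CPM, against 12630 to 13600 CPM in the other 4, and their enterocyte list 27420 and 24740 CPM against 43180 to 57890 CPM. Replicate 4 alone held 70370 CPM of a list of 11 stomach and Brunner gland genes, against 8.54 to 55.6 CPM in the other 5. A list of 11 pancreatic acinar genes summed to 48.8 and 17.7 CPM in replicates 3 and 4 and to 4.91 to 6.96 CPM in the other 4. The part of sampling position or neighbouring tissue in these values was not tested. The main comparisons with this group are given with and without these libraries; the choice to leave them out was made after their values were seen. Wild-type non-tumour replicate 4 stood apart from its group as well, with 1155 CPM of the red blood cell list against 60.6 to 64.7 CPM in the other 3, 1053 CPM of the endothelium list against 123 to 157 CPM, and 332 CPM of the stomach and Brunner gland list against 24.2 to 43.3 CPM. The part of these cells in that library's values was not tested.

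The promoters of both luminal enzymes are shown because these genes had the largest fold changes of the 7 in the ex/ex tumours. RefSeq promoter windows of build GRCm38.p6, 250 bases before to 50 after the start site, were available for 4 of the 7 genes: Pdx1, Akp3, Tmprss15 and Cybrd1. Tmprss15 lies on chromosome 16 on the minus strand (chr16:78953008-79091097), and its window is chr16:79091048-79091347. Akp3 lies on chromosome 1 on the plus strand (chr1:87124973-87127912), and its window is chr1:87124704-87125003. Each is printed 5′ to 3′ on the gene's strand, with matches to searched motifs in capitals.
Tmprss15: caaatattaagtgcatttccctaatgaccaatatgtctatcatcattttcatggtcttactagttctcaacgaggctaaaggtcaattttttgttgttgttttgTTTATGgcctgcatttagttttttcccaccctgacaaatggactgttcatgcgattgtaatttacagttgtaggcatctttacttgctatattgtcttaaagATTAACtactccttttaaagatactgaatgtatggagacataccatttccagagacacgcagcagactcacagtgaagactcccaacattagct
Akp3: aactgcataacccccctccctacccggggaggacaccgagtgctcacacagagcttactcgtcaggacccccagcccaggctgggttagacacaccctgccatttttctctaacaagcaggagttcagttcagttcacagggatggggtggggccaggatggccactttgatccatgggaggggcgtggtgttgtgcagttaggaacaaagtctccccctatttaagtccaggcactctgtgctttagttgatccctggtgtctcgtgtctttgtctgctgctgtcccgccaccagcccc
6 motifs were searched on both strands: AGATAA for GATA factors, GTTAAT for HNF1, TTTATG for CDX proteins, ATCGAT for ONECUT proteins, CAAAGTCCA for HNF4 and TCTAATTA for PDX1. Their letters do not overlap each other in the Tmprss15 window. Tmprss15 had TTTATG 146 bases before the start site and GTTAAT on the opposite strand 44 bases before it. Of 32851 promoter windows of that length, 11.9% held TTTATG, 7.1% GTTAAT, 11.2% AGATAA, 0.925% ATCGAT, 0.475% CAAAGTCCA and 0.703% TCTAATTA. The windows of Akp3, Pdx1 and Cybrd1 held none of the 6.

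Compared per kilobase of exon, Heph had the highest mean level of the 7 genes in both tumour groups and in wild-type non-tumour tissue, with Gata4 next. In ex/ex tumours the means were 40.0 ± 23.1 CPM per kb (SD, n = 17) for Heph and 12.3 ± 11.5 for Gata4. Cybrd1 followed at 1.55 ± 0.485 CPM per kb and Akp3 at 1.45 ± 0.712, a pair whose gap was smaller than their spread. Below them stood Onecut2 at 0.424 ± 0.542, Pdx1 at 0.0696 ± 0.0751 and Tmprss15 at 0.0342 ± 0.0885 CPM per kb, again closer to each other than to the spread between tumours. In wild-type tumours Onecut2 was in the third place at 2.52 ± 1.91 CPM per kb (SD, n = 12), next to Cybrd1 at 2.37 ± 1.62, and Tmprss15 was again lowest at 0.0388 ± 0.112. In wild-type non-tumour tissue the order was Heph at 48.2 ± 28.6 CPM per kb (SD, n = 4), Gata4 at 32.6 ± 12.02, Onecut2 at 3.53 ± 1.03, Akp3 at 2.97 ± 2.07, Cybrd1 at 2.27 ± 2.13, Pdx1 at 1.11 ± 1.23 and Tmprss15 at 0.420 ± 0.688. Only the gap between Gata4 and Onecut2 was larger than the spread, and that between Heph and Gata4 was not. In ex/ex non-tumour tissue Akp3 led at 1401 ± 2211 CPM per kb (SD, n = 6); without replicates 3 and 4 it was at 18.8 ± 13.1 (n = 4), below Heph at 67.4 ± 7.86 and Gata4 at 33.1 ± 11.96.

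**Figure D1:**
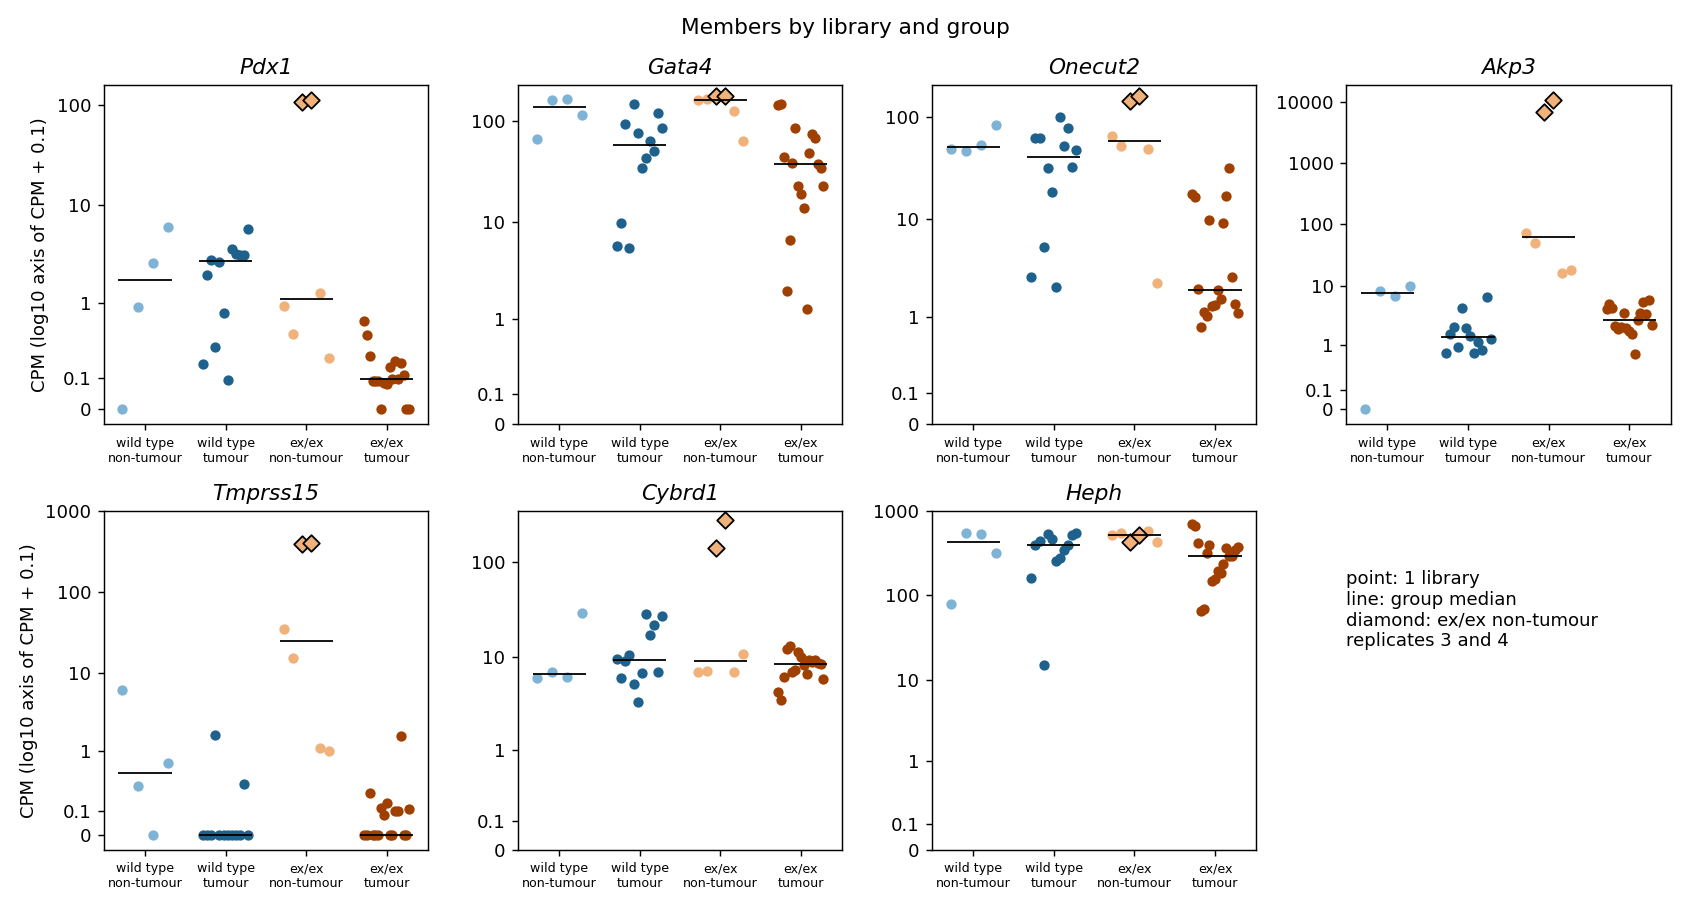
CPM of each gene (log10 axis of CPM + 0.1) in every library of the 4 groups, with a line at the group median and diamonds for ex/ex non-tumour replicates 3 and 4. The diamonds lie far above the other ex/ex non-tumour libraries for Pdx1, Akp3, Tmprss15 and Cybrd1. For Onecut2 they also lie above, at 142 and 157 CPM against 2.29 to 64.5. For Gata4 they lie slightly above, at 179 and 180 CPM against 64.2 to 165. For Heph they are at 426 and 513 CPM against 432 to 571.

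Comparing ex/ex tumours with the non-tumour tissue around them asks which duodenal genes differ in tumours of this genotype. Of the 7 genes, 6 were lower in tumours (edgeR quasi-likelihood test, Benjamini-Hochberg adjusted p under 0.05), where 23.3% of all 16327 tested genes were lower. Without ex/ex non-tumour replicates 3 and 4, 4 were lower (Pdx1, Onecut2, Akp3 and Tmprss15), where 17.5% of genes were. The median log2 fold change of the 7 genes was -3.51 with all libraries and -2.28 without these, and that of all tested genes was -0.03 and 0.00. In bulk tissue, fewer cells of a type and less RNA per cell cannot be told apart. In the same contrast 9 of 10 genes of a B and plasma cell list were higher in tumours, where 23.8% of all tested genes were. The other 1 was lower.

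Pdx1, the homeobox factor of duodenum and pancreas, was all but absent from ex/ex tumours. It ranged from 0 to 0.637 CPM (median 0.0964) in the 17 tumours, with 23 counts among them and 3 libraries at 0. In non-tumour replicates 1 to 6 it was at 0.919, 0.447, 106, 110, 1.29 and 0.218 CPM. 14 tumours lay below the lowest non-tumour library, and 4 non-tumour libraries lay above every tumour. Tumours were lower by a log2 fold change of -7.93 ± 0.82 (SE, adjusted p = 6.0e-09, edgeR). Without replicates 3 and 4 it was -2.28 ± 0.71 (adjusted p = 0.0125, edgeR). The other 4 non-tumour libraries held 7, 4, 12 and 2 counts, so that fold change rests on levels near 0 in both tissues.

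Gata4, a zinc finger factor that sets the border between proximal small intestine and ileum, remained easily detected in tumours and varied widely among them. It ranged from 1.27 to 150 CPM (median 37.6) in ex/ex tumours and was at 161, 165, 179, 180, 126 and 64.2 CPM in non-tumour replicates 1 to 6. The groups overlapped, with 12 of 17 tumours below every non-tumour library. The log2 fold change was -1.61 ± 0.57 (SE, adjusted p = 0.0208, edgeR), and -1.43 ± 0.67 (adjusted p = 0.0872) without replicates 3 and 4, where the call was lost. With all libraries and a list sum as covariate, the result depended on the list. Gata4 was not called with the B and plasma cell list, at 0.25 ± 0.66 (adjusted p = 0.829, edgeR). Nor was it with the distal small intestine list, at -1.15 ± 0.67 (adjusted p = 0.140). With the epithelium list it stayed called, at -1.51 ± 0.44 (adjusted p = 0.00445).

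Onecut2, a cut-domain factor of proximal intestine, spread over a wide range in ex/ex tumours, from 0.783 to 31.3 CPM (median 1.91). In non-tumour replicates 1 to 6 it was at 64.5, 51.8, 142, 157, 48.4 and 2.29 CPM. 5 of 6 non-tumour libraries lay above every tumour, and replicate 6 lay among the tumours. The log2 fold change was -3.51 ± 0.67 (SE, adjusted p = 1.1e-04, edgeR), and -2.61 ± 0.74 (adjusted p = 0.00733) without replicates 3 and 4. The B and plasma cell covariate ended its call, at -1.47 ± 0.92 (adjusted p = 0.274, edgeR). Onecut2 stayed called with the epithelium covariate, at -3.37 ± 0.60 (adjusted p = 2.1e-05), and with the distal small intestine covariate, at -2.34 ± 0.76 (adjusted p = 0.0104).

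Akp3, the duodenal alkaline phosphatase, separated the groups completely. It ranged from 0.686 to 5.9 CPM (median 2.70) in ex/ex tumours. In non-tumour replicates 1 to 6 it was at 73.3, 50.6, 6926, 10560, 16.3 and 18.0 CPM. All 17 tumours were below all 6 non-tumour libraries, as were 3.03% of all tested genes, and with replicates 3 and 4 left out the separation stood, as for 5.33% of genes. On the log2 scale Akp3 changed by -9.92 ± 0.79 (SE, adjusted p = 3.2e-11, edgeR), and -3.70 ± 0.39 (adjusted p = 3.2e-08) without those libraries. Its neighbour Alpi, a second intestinal alkaline phosphatase, ranged from 64.2 to 1771 CPM in tumours and from 672 to 4996 CPM in non-tumour tissue; it was lower in tumours at -1.95 ± 0.50 (adjusted p = 0.00185) and not called without replicates 3 and 4, at -0.88 ± 0.56 (adjusted p = 0.208). Akp3 and Alpi shared 1.57% of the 50-base windows of Akp3. The other family members tested, Alppl2 and Alpl, did not pass, at -1.12 ± 0.49 (adjusted p = 0.0581) and -0.52 ± 0.26 (adjusted p = 0.0951), nor without those libraries, at -1.16 ± 0.57 (adjusted p = 0.103) and -0.45 ± 0.31 (adjusted p = 0.246).

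Tmprss15, the gene for enteropeptidase, was close to absent in ex/ex tumours. It was at 0 in 9 of 17 and reached 1.55 CPM, in replicate 14, with 26 counts over the group. In non-tumour replicates 1 to 6 it was at 34.8, 15.2, 384, 400, 1.07 and 0.982 CPM. 16 tumours lay below every non-tumour library, and replicate 14 lay above non-tumour replicates 5 and 6. Tmprss15 changed by a log2 fold of -9.74 ± 0.87 (SE, adjusted p = 3.1e-10, edgeR), and -6.33 ± 0.81 (adjusted p = 8.2e-07) without replicates 3 and 4. With so few counts in tumours these fold changes rest on the fitted level near 0. Tmprss15 met the count filter through the ex/ex non-tumour group, where it is high. There 4 libraries were over the cutoff, against 1 in each other group.

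Cybrd1, the duodenal ferric reductase, was called lower in tumours with replicates 3 and 4 included and not without them. It ranged from 3.56 to 13.1 CPM (median 8.40) in ex/ex tumours. In non-tumour replicates 1 to 6 it was at 6.96, 7.15, 137, 272, 6.99 and 10.9 CPM, so the other 4 lay inside the tumour range. The log2 fold change was -3.14 ± 0.49 (SE, adjusted p = 6.8e-06, edgeR), and 0.05 ± 0.40 (adjusted p = 0.929) without replicates 3 and 4, with a 95% interval of -0.74 to 0.85. About 1.93% of its 50-base windows are shared with other genes.

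Heph, the basolateral ferroxidase, did not pass the test. It ranged from 65.3 to 692 CPM (median 295.5) in ex/ex tumours and from 426 to 571 CPM (median 516.7) in non-tumour tissue. 15 tumours lay below every non-tumour library and 2, replicates 1 and 2, lay above all of them. Its log2 fold change was -0.71 ± 0.40 (SE, adjusted p = 0.140, edgeR), and -0.76 ± 0.47 (adjusted p = 0.201) without replicates 3 and 4. Heph is X-linked, and by Xist and Ddx3y counts 5 libraries looked male: ex/ex tumours 1, 2 and 3 and ex/ex non-tumour 1 and 2. Without these 5 libraries the log2 fold change of Heph was -0.99 ± 0.45 (adjusted p = 0.0658, edgeR), again not called. Sex was not a term in any fit, and its part in the level of Heph was not tested. It overlaps Hsf3 on the opposite strand by 29 exon bases.

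**Figure D2:**
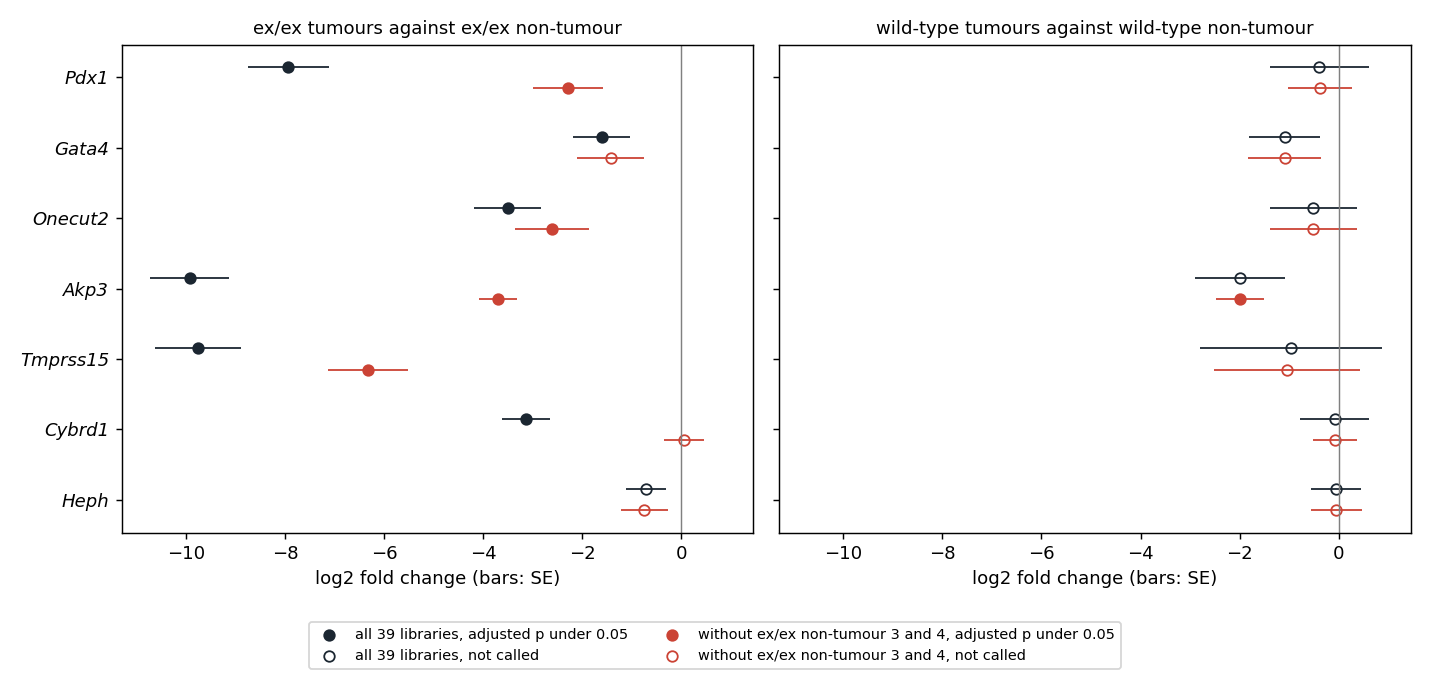
Log2 fold change (point) and SE (bar) of each gene for tumours against non-tumour tissue in ex/ex and in wild type, with all 39 libraries and without ex/ex non-tumour replicates 3 and 4; filled points have an adjusted p under 0.05. In ex/ex, Cybrd1 moves from -3.14 to 0.05 and Gata4 loses its call, and in wild type Akp3 is the one filled point, only without these libraries.

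The level of Heph followed the summed epithelium list across libraries. Heph relative to that list, as CPM per 1000 CPM of the list, was 33.4 to 59.8 in ex/ex non-tumour tissue (33.4 to 45.2 without replicates 3 and 4), 18.3 to 35.6 in ex/ex tumours, 16.8 to 27.6 in wild-type tumours and 12.3 to 36.1 in wild-type non-tumour tissue. With that sum as a covariate, Heph was lower in ex/ex tumours than in ex/ex non-tumour tissue at -0.46 ± 0.15 (SE, adjusted p = 0.00965, edgeR), and the call was lost without ex/ex non-tumour replicates 3 and 4, at -0.40 ± 0.17 (adjusted p = 0.0641). By the same fit Heph was higher in ex/ex than in wild-type tumours at 0.44 ± 0.12 (adjusted p = 0.00571, edgeR), and at 0.44 ± 0.12 (adjusted p = 0.00566) without those libraries. Such calls were common: with that covariate and all libraries, 4359 of 16327 genes were lower in the first contrast and 3001 higher in the second.

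**Figure D3:**
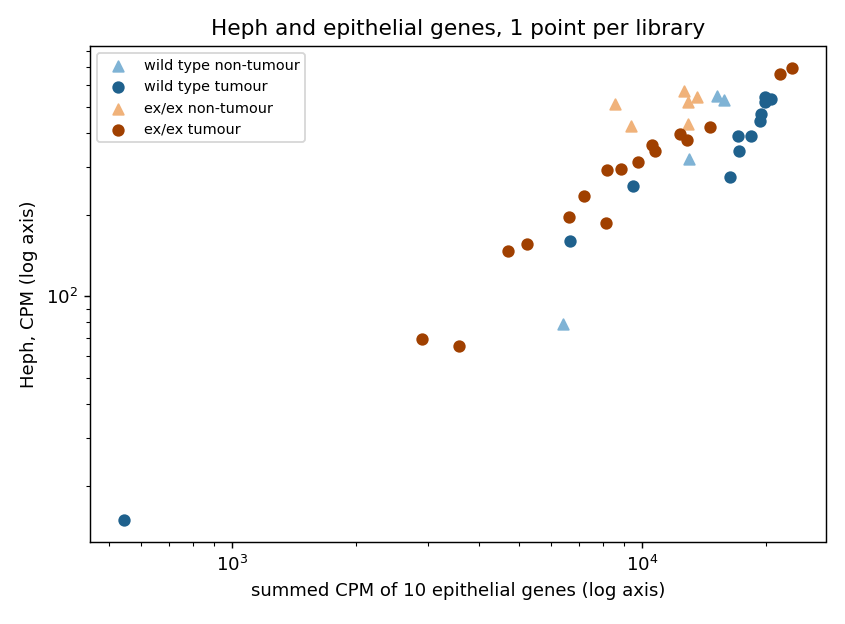
Heph CPM against the summed CPM of 10 epithelial genes (both log axes), 1 point per library. Heph falls with the epithelial sum in both tumour groups, down to 14.96 CPM in wild-type tumour replicate 4, and the 6 ex/ex non-tumour libraries sit at 426 to 571 CPM.

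In wild-type mice none of the 7 genes passed the test of tumours against non-tumour samples (edgeR, adjusted p under 0.05), where 5.05% of genes were called. Akp3 was nearest. It was at 0, 8.28, 6.79 and 9.88 CPM in non-tumour replicates 1 to 4 and ranged from 0.694 to 6.41 CPM (median 1.35) in tumours. Replicates 2 to 4 lay above every tumour, and the shallow replicate 1 had no count. Akp3 had a log2 fold change of -1.99 ± 0.91 (SE, adjusted p = 0.196, edgeR). With ex/ex non-tumour replicates 3 and 4 left out of the shared fit the estimate was the same and its SE 0.48. The adjusted p was 0.00995 (edgeR), so that Akp3 was called lower, where 3.27% of genes were. Of the other settings, 3 called Akp3, all of which left out those libraries. In 10, among them the fit of the wild-type groups alone, Akp3 was not called.

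The other 6 genes overlapped between both wild-type tissues. Pdx1 ranged from 0.0909 to 5.75 CPM (median 2.76) in tumours and was at 0, 0.909, 2.63 and 6.03 CPM in non-tumour tissue (log2 fold change -0.39 ± 1.01). Gata4 ranged from 5.46 to 148 CPM (median 57.9) in tumours and was at 66.6, 162, 166 and 114 CPM in non-tumour tissue (log2 fold change -1.09 ± 0.72). Onecut2 ranged from 2.09 to 98.0 CPM (median 39.9) in tumours and was at 48.4, 46.4, 52.6 and 82.1 CPM in non-tumour tissue (log2 fold change -0.51 ± 0.88). Of the 12 tumours, 7 lay below every non-tumour library for Gata4 and 6 for Onecut2. Tmprss15 was at 0 in 10 of 12 tumours, with 1.62 CPM in replicate 4 and 0.332 in replicate 11, and at 6.06, 0.303, 0 and 0.67 CPM in non-tumour tissue. The value of 6.06 CPM is a single count in the shallow replicate 1. Cybrd1 ranged from 3.33 to 28.4 CPM in tumours and was at 6.06, 7.07, 6.13 and 29.1 CPM in non-tumour tissue. The last value is from replicate 4, without which the log2 fold changes of Cybrd1 and Pdx1 turned positive, at 0.93 ± 0.87 (adjusted p = 0.550, edgeR) and 0.41 ± 1.25 (adjusted p = 0.894). Heph ranged from 14.96 to 545 CPM in tumours and was at 78.7, 549, 528 and 321 CPM in non-tumour tissue (log2 fold change -0.05 ± 0.50, and 0.065 without tumour replicate 4).

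Comparing tumours of the genotypes asks how Adam17 goes with these genes inside tumours. Of the 7, 2 genes, Pdx1 and Onecut2, had lower levels in ex/ex tumours (edgeR, adjusted p under 0.05), where 18.0% of genes were lower. Pdx1 had a mean of 0.150 ± 0.162 CPM (SD, n = 17) in ex/ex tumours and 2.33 ± 1.72 CPM (n = 12) in wild-type tumours. 9 wild-type tumours lay above every ex/ex tumour. Pdx1 differed by a log2 fold change of -3.94 ± 0.78 (SE, adjusted p = 1.8e-04, edgeR). Onecut2 had a mean of 6.88 ± 8.79 CPM in ex/ex tumours and 40.9 ± 31.0 CPM in wild-type tumours, and 10 ex/ex tumours lay below every wild-type one. Its log2 fold change was -2.58 ± 0.59 (adjusted p = 9.8e-04). Adding the summed level of the B and plasma cell list to the fit ended both calls, at -1.87 ± 1.18 (adjusted p = 0.258) for Pdx1 and -0.52 ± 0.80 (adjusted p = 0.681) for Onecut2. That list summed to 419.5 to 4815 CPM (median 3514) in ex/ex tumours and 483.7 to 6981 CPM (median 1047) in wild-type tumours. In wild-type non-tumour tissue the median sum was higher, at 1878.5 CPM. The median log2 fold change of its 10 genes between the wild-type tissues was 5.71, higher in tumours. The sum thus need not follow most genes of that list. With the epithelium list in its place both stayed called, at -3.30 ± 0.98 (adjusted p = 0.00848) and -1.99 ± 0.54 (adjusted p = 0.00472). A list of 11 stomach and Brunner gland genes, 9 of them tested, summed to 0.693 to 65.5 CPM in ex/ex tumours and 0.347 to 721.4 CPM in wild-type tumours, and 8 of the 9 were lower in ex/ex tumours. The part of these other cells in the difference was not tested.

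The other 5 genes were not called between the tumour groups. Gata4 differed by -0.36 ± 0.49 (SE), Cybrd1 by -0.60 ± 0.42, Heph by -0.24 ± 0.33, Akp3 by 0.65 ± 0.63 and Tmprss15 by -0.19 ± 1.18 on the log2 scale, with 95% intervals of -1.31 to 0.59, -1.43 to 0.23, -0.89 to 0.40, -0.59 to 1.89 and -2.50 to 2.12.

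Among ex/ex tumours, Onecut2 and Gata4 were lower where Fabp6, the ileal bile acid binding protein and a marker of distal small intestine, was high. The libraries are split here at 100 CPM of Fabp6 as a description, without a test, and the cut was chosen with earlier results known. In the 7 ex/ex tumours under it (Fabp6 at 3.37 to 31.3 CPM), Onecut2 was at 2.64 to 31.3 CPM and Gata4 at 37.6 to 150 CPM. In the 10 over it (526.3 to 8909 CPM), Onecut2 was at 0.783 to 1.963 CPM and Gata4 at 1.27 to 43.9 CPM. Onecut2 did not overlap between these sets and Gata4 overlapped in a narrow band. The share of all tested genes without overlap in this split was not counted, so it is not known whether Onecut2 stands out. The epithelium list summed to 7205 to 23190 CPM in the tumours under the cut and 2894 to 14600 CPM in those over it. Its part in these levels was not tested. Ex/ex non-tumour replicate 6, the only one of its group over the cut at 104 CPM of Fabp6, had 2.29 CPM of Onecut2 and 64.2 CPM of Gata4. Among the 10 wild-type tumours over the cut Onecut2 ran from 2.09 to 98.0 CPM, so both low and high Onecut2 occurred beside high Fabp6 in this genotype.

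**Figure D4:**
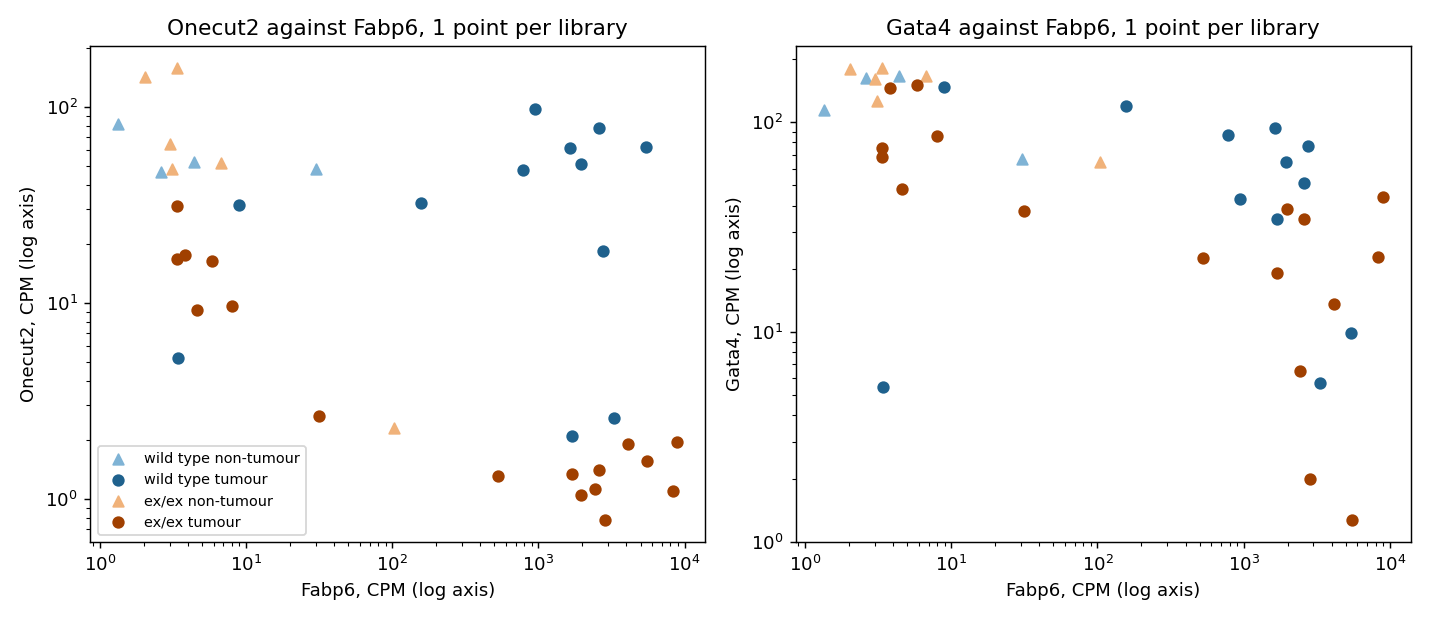
Onecut2 (left) and Gata4 (right) against Fabp6 in every library, in CPM on log axes. Ex/ex tumours with Fabp6 of 526.3 CPM or more all have Onecut2 under 2 CPM, while wild-type tumours with similar Fabp6 reach 98.0 CPM.

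In non-tumour tissue, Akp3 and Tmprss15 were higher in ex/ex than in wild type (edgeR, adjusted p under 0.05), where 0.398% of genes were higher. Akp3 in all 6 ex/ex libraries lay above all 4 wild-type libraries, as did 1.85% of genes, at a log2 fold change of 8.57 ± 1.498 (SE, adjusted p = 6.5e-04, edgeR). Leaving out ex/ex replicates 3 and 4 kept the separation, as for 4.54% of genes, and ended the call, at 2.36 ± 0.63 (adjusted p = 0.0576), where 0.227% of genes were called higher. Tmprss15, which met the count filter through the ex/ex non-tumour group, was higher at 8.59 ± 1.75 (adjusted p = 0.00383, edgeR), and 5.10 ± 1.53 (adjusted p = 0.107) without them. Pdx1 was at 3.60 ± 1.24 (adjusted p = 0.174) and turned to -2.04 ± 0.84 (adjusted p = 0.333) without them.

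The difference between the genotypes in the tumour effect was tested as an interaction. Pdx1 and Akp3 passed, where 0.116% of genes were called in that direction. The interaction was -7.54 ± 1.57 (SE, adjusted p = 0.0327, edgeR) for Pdx1 and -7.92 ± 1.53 (adjusted p = 0.0201) for Akp3, and Tmprss15 missed it at -8.78 ± 2.16 (adjusted p = 0.0680). Without ex/ex non-tumour replicates 3 and 4 none of these passed, at -1.90 ± 0.97 (adjusted p = 0.560), -1.71 ± 0.70 (adjusted p = 0.553) and -5.28 ± 1.79 (adjusted p = 0.465), where 0.0552% of genes were called in either direction.

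Several other genes of iron handling and proximal absorption also set the same 2 non-tumour libraries apart, in both directions. Of 14 genes of iron absorption and storage, 6 were higher in both ex/ex non-tumour replicates 3 and 4 than in all of the other 4, 4 were lower in both (Flvcr1, Aco1, Arnt and Tfrc) and 4 were neither. Of 12 proximal absorptive and hormone genes, 5 were higher in both, 3 lower (Bco1, Lct and Npc1l1) and 4 neither, and of 18 patterning factors 3 were higher, 4 lower and 11 neither. The share of all tested genes that set these 2 libraries apart was not counted, so it is not known whether these lists stand out. The genes named next were picked after these values were seen. Slc40a1, the iron exporter ferroportin, was at 933 and 1190 CPM in ex/ex non-tumour replicates 3 and 4 and at 18.5 to 36.8 CPM in the other 4. S100g, the calcium-binding protein calbindin of the duodenum, was at 4739 and 5798 CPM against 12 to 15.4 CPM, and Trpv6, the apical calcium channel, at 128 and 280 CPM against 0.218 to 0.323 CPM. Reg1, a secreted lectin, was at 6415 and 5275 CPM against 16.1 to 763.6 CPM, and Slc11a2, the apical iron transporter, at 215 and 199 CPM against 41.9 to 72.0 CPM. Some proximal genes ran the other way. Lct, the lactase gene, was at 1202 and 958 CPM in replicates 3 and 4 and at 2297 to 4290 CPM in the other 4, and Bco1, which cleaves carotenoids, was at 1.24 and 2.20 CPM against 16.98 to 33.2 CPM.

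**Figure D5:**
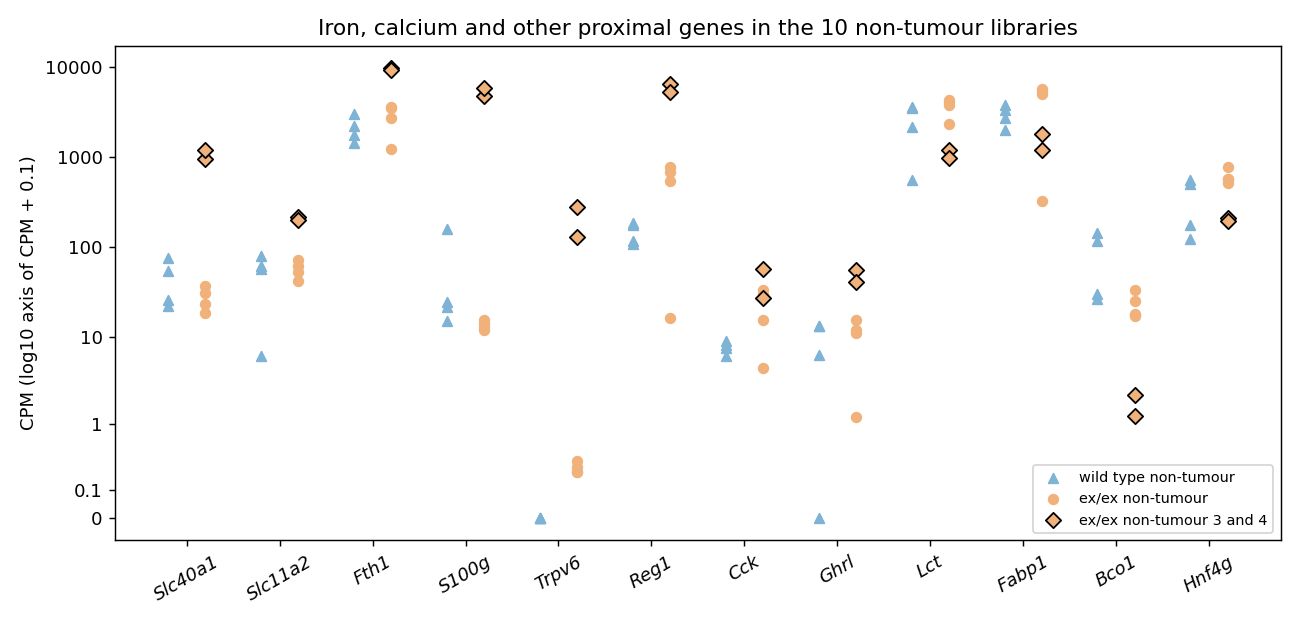
CPM (log10 axis of CPM + 0.1) of 12 genes from the iron, proximal and patterning lists in the 10 non-tumour libraries, with diamonds for ex/ex replicates 3 and 4; the 12 were picked after their values were seen. The diamonds lie above the other ex/ex points for Slc40a1, Slc11a2, Fth1, S100g, Trpv6, Reg1 and Ghrl, and below them for Bco1, Lct and Hnf4g.

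In ex/ex tumours against ex/ex non-tumour tissue, the lists around these genes behaved as follows, with counts by edgeR at an adjusted p under 0.05. Of all tested genes, 23.3% were lower and 23.8% higher, and 17.5% and 20.9% without ex/ex non-tumour replicates 3 and 4. Of 17 tested gut patterning transcription factors, 9 were lower and none higher, and 6 were lower without replicates 3 and 4. Zfpm1, a cofactor of GATA factors, fell by 1.81 on the log2 scale with those libraries and by 1.43 without, Gata6, a relative of Gata4, by 1.32 and by 1.39, and Klf5, a factor of crypt cells, by 1.13 and by 1.29. Foxa2, a forkhead factor of gut endoderm, fell by 1.51 and did not pass without replicates 3 and 4 (-1.12, adjusted p = 0.0571). Of 14 genes of iron absorption and storage, 9 were lower and 1 higher, and 6 and 1 without those libraries; Slc40a1 fell by 4.29 with them and did not pass without them (-0.53, adjusted p = 0.386), whereas Epas1, the hypoxia factor HIF-2 alpha, fell by 1.28 with them and by 1.15 without. Fth1, the ferritin heavy chain, fell by 1.90 and by 1.05, and Ireb2, an iron-sensing RNA-binding protein, by 0.91 and by 0.81. Hmox1, which breaks down haem, was the 1 that rose, by 1.72 and 2.17. Of 12 proximal absorptive and hormone genes, 6 were lower, and of the 11 tested without those libraries 4 were; Cck, the cholecystokinin gene, fell by 2.89 and by 2.47, and Scarb1, a lipoprotein receptor, by 2.87 and by 2.25. Reg1 fell by 7.66 and by 5.46, and Trpv6 by 10.27, with too few counts to be tested without those libraries. Of 10 distal small intestine genes, 4 were higher and 1 lower, and 2 and 1 without those libraries; Fabp6 was higher by 6.81 and 6.30, and Fgf15, the ileal hormone, by 5.63 and 5.11. Slc10a2, the ileal bile acid transporter, was higher by 3.55 and did not pass without those libraries (3.16, adjusted p = 0.0684), and Gcg, the proglucagon gene, fell by 1.42 and by 1.90. The median log2 fold changes of these 4 lists were -0.82, -0.87, -2.41 and 0.87, and -0.84, -0.56, -1.33 and 0.75 without those libraries. Of 10 epithelium genes none passed in either fit. Among lists of other cells and regions, 4 of 12 enterocyte, 5 of 9 stomach and Brunner gland, 3 of 4 colon, 4 of 5 red blood cell and 7 of 8 endothelium genes were lower, as was the 1 pancreatic acinar gene tested, and none of 6 smooth muscle genes passed. Without replicates 3 and 4 these counts were 2, 4, 2, 1, 7 and 0, and smooth muscle again had none.

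The genes whose log2 CPM was most like that of each of the 7 over 38 libraries, leaving out the shallow one, were named from 12310 candidates, as a description. The closest to Heph were Cdhr2 (r = 0.991), Clrn3 (0.988) and Chmp4c (0.988). Gata4 was followed most closely by Ugt2a3 (r = 0.968), Acot12 (0.963) and Nr1i3 (0.961). Onecut2 was followed by Pparg (0.931), Pkm (0.917) and Gsta1 (0.915). Leaving out ex/ex non-tumour replicates 3 and 4 moved these little, to 0.991 for Cdhr2, 0.970 for Ugt2a3 and 0.921 for Pparg. For the genes nearest to the other 4, r fell more without these libraries. Akp3 had Slc4a7 at r = 0.916, and at 0.628 over 36 libraries without them. Tmprss15 had Slc19a1 at 0.896 and 0.775, Pdx1 had Paox at 0.917 and 0.862, and Cybrd1 had Stard5 at 0.824 and 0.608. Slc19a1 still ranked 1 for Tmprss15 without them, whereas Slc4a7, Paox and Stard5 fell to ranks 879, 92 and 369 for their genes.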

How the data were processed

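RNA of 39 tissue samples was sequenced from strand-specific mRNA libraries, per the labels' protocols. The deposited values are raw read counts per gene from HTSeq, per the submitters' processing notes, which also name Trimmomatic 0.36, TopHat2 2.0.14 and build GRCm38. For HTSeq, version, strand option and annotation were not given in the sources used here. GENCODE M21 (GRCm38) gave gene names, lengths and coordinates, and RefSeq gave promoters. Rows that name no gene stayed out of totals. Groups came from the genotype and tissue labels. One edgeR 4.0.16 quasi-likelihood fit over the 4 groups (R 4.3.3, TMM scaling, edgeR's filter by group at 1.11 CPM in at least 4 libraries, 16327 genes kept) gave 5 contrasts, with Benjamini-Hochberg adjustment over all tested genes and a threshold of 0.05. Tmprss15 was over that level in 4 ex/ex non-tumour libraries and in 1 library of each other group, so it passed through the ex/ex non-tumour group. Pdx1 passed with 12 libraries, 8 of them wild-type tumours. The scripts were tested on simulated data. Alternatives used limma 3.58.1 (voom), DESeq2 1.42.0, DESeq2 size factors, no filter, only the groups compared, list sums as covariates and left-out libraries. Depth sets precision: 1 count was worth 2.28 CPM in the shallowest library. No 2 libraries of a group agreed within sampling noise, but some pairs were far closer than others. By chi-square per degree of freedom, ex/ex non-tumour replicates 1 and 2 were at 2.01, against a group median of 68.7. Ex/ex tumour replicates 4 and 5 were at 5.02, against 64.3. The labels do not say whether such pairs came from the same animal. The 7 genes, the 14 gene lists and the tests were chosen with earlier results of these data known. Named were the 7 genes, the 3 genes most like each by Pearson r of log2 CPM (prior count 2) among those with average log2 CPM of at least 1, and up to 4 genes per list with the smallest p in ex/ex tumours against ex/ex non-tumour tissue; Lct, Bco1, S100g, Slc11a2, Hmox1, Flvcr1, Aco1, Arnt, Tfrc and Npc1l1 were named after their values were seen.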

Additional observations from a re-analysis of the deposited data

Results flagged for a closer look

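Tmprss15 in wild-type non-tumour replicate 1 was at 6.06 CPM, far from the other 3 libraries of its group at 0 to 0.67 CPM, and it is a single count in the shallowest library. Cybrd1 in wild-type non-tumour replicate 4 was at 29.1 CPM, far from the other 3 at 6.06 to 7.07 CPM. The same library held 1155 CPM of the red blood cell list, 1053 CPM of the endothelium list and 332 CPM of the stomach and Brunner gland list, against 60.6 to 64.7, 123 to 157 and 24.2 to 43.3 CPM in the other 3, and the part of these cells was not tested. These are 2 outlying libraries among 14 groups of values examined, and chance alone singles out about 1 group in 20.

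The tumour effect differed between genotypes for Pdx1, with an interaction of -7.54 on the log2 scale, and for Akp3, at -7.92. Without ex/ex non-tumour replicates 3 and 4 these were -1.90 and -1.71 and neither passed the test.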

How the results depend on the processing

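Of 443 fold changes of the 7 genes under other settings, 358 kept their direction and side of the threshold, as did 1348 of 1365 with 1 library left out, and all 28 group means stayed within their spread. 22 of 28 ranks by CPM per kb were kept when levels were divided by the length of the longest transcript. No paired analysis was possible because the replicate numbers follow accession order and tie no samples together. Where a value changed sign or a call was lost, the cause was not tested. Leaving out ex/ex non-tumour replicates 3 and 4, or these with wild-type non-tumour replicate 1, were settings chosen after seeing the data, as was the first with the epithelium covariate.

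Values that changed sign are log2 fold changes, and only Heph between tumours passed the test, in both fits with the epithelium covariate. In ex/ex tumours against non-tumour tissue they were 0.25 for Gata4 and 0.57 for Heph with the B and plasma cell covariate, and 0.053 and 0.059 for Cybrd1 with the first and second of those leave-outs. In wild type, Pdx1 was 0.71 by limma-voom, 0.82 with the distal covariate and 0.37 without replicates 1 and 4, Onecut2 was 1.49 with the distal covariate, and Tmprss15 was 0.12 without replicates 1 and 4. Cybrd1 was 0.43, 0.53 and 0.93 under the same 3 settings as Pdx1, and Heph 0.19 with the B and plasma cell covariate. Between tumours, Gata4 was 1.44 and Heph 0.89 with the B and plasma cell covariate, and 0.19 and 0.44 with the epithelium covariate, and Tmprss15 was 0.59 by limma-voom, 0.85 with epithelium and 2.95 with the distal covariate. Between non-tumour groups, limma-voom gave -0.35 for Pdx1 and -0.088 for Gata4, and leaving out wild-type replicates 1 and 4 gave -0.17 for Gata4 and -0.11 for Heph. The first and second leave-outs gave -2.04 and -2.09 for Pdx1, -0.025 and -0.21 for Gata4, -0.48 and -0.52 for Onecut2 and -0.73 and -0.78 for Cybrd1. The interaction was 1.13 for Gata4 and 0.38 for Heph with the B and plasma cell covariate, and 0.13 and 0.21 for Cybrd1 with the leave-outs. The first leave-out with the epithelium covariate gave 0.20 for Gata4, 0.52 for Tmprss15 and 0.44 for Heph between tumours, -1.95 for Pdx1, -0.068 for Gata4, -0.49 for Onecut2 and -0.74 for Cybrd1 between non-tumour groups, and 0.26 for Gata4 and 0.059 for Cybrd1 in the interaction.

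With 1 library left out, tumours against non-tumour tissue in wild type ran from -0.80 to 0.41 for Pdx1, -0.38 to 0.93 for Cybrd1 and -0.36 to 0.20 for Heph. Tmprss15 between tumours ran from -1.42 to 1.93, positive only without wild-type tumour replicate 4, and Gata4 between non-tumour groups from -0.018 to 0.31.

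The number of the 7 genes called in ex/ex tumours against non-tumour tissue was 6, and 4 with the B and plasma cell covariate, where Gata4 and Onecut2 were lost. Of 16327 genes, 7685 and 3189 were called in these fits. In wild type the number was 1 in place of 0 with either leave-out, where 865 of 16302 and 725 of 16524 genes were called. The first leave-out with the epithelium covariate called 1 in wild type, 4 between tumours and 0 for the interaction. Of all 16302 genes it called 2821, 5724 and 8. Between tumours the number was 2, where 5429 of 16327 genes were called, and 4 by limma-voom, where 11850 were. It was 1 with only these groups fitted, where 4574 of 14714 genes were called. With the B and plasma cell covariate it was 0. Between non-tumour groups it was 2, and 0 with only these groups fitted, without wild-type replicates 1 and 4, and with either leave-out. For the interaction it was 2, and 1 with the B and plasma cell covariate, 4 without libraries that look male, 0 without wild-type replicates 1 and 4 or with either leave-out, and 0 to 3 with 1 library left out. The interaction fits with 2, 1 and 4 of the 7 called 33 and 37 of 16327 genes and 122 of 16284. The Akp3 interaction lost its call without wild-type non-tumour replicate 1. The Pdx1 interaction lost it without wild-type non-tumour replicate 1, 2 or 3 or ex/ex non-tumour replicate 4.

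Over all genes, the calls were 7685 in ex/ex, 825 in wild type, 5429 between tumours, 65 higher and 167 lower between non-tumour groups and 33 for the interaction, and limma-voom gave 11797, 6126, 11850, 1597 and 8459. The B and plasma cell covariate gave 3189, 1823, 3223 and 434 for the first 4, and the epithelium covariate 2589, 544 and 86 for wild type, non-tumour and interaction. Fitting only the groups compared gave 197 in wild type and 25 between non-tumour groups. Leaving out wild-type non-tumour replicates 1 and 4 gave 461, 33 and 1 for wild type, non-tumour and interaction, and libraries that look male 150 and 122 for the last 2. The interaction had 136 calls by DESeq2, 15 with no count filter, and 9 and 5 with the leave-outs. No count filter gave 447 in wild type, and the second leave-out 126 between non-tumour groups.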
